A study of Arabidopsis thaliana with 11 samples.

Results

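Flowers formed over 8 days of dexamethasone treatment were compared with the uninduced inflorescence meristem from which they grew. The comparison used the 3 RNA-seq libraries of day 8 and the 3 of day 0, which are 6 of the 11 libraries of the series. All came from inflorescences of Arabidopsis thaliana of the Landsberg ecotype with the genotype pAP1:AP1-GR ap1-1 cal-1. In these plants the floral meristem identity genes APETALA1 (AP1) and CAULIFLOWER (CAL) are mutant, so the shoot apex piles up meristems that do not become flowers. The transgene supplies AP1 joined to the hormone-binding domain of the glucocorticoid receptor and is driven by the AP1 promoter, so that the fusion protein is held outside the nucleus until dexamethasone is given and flowers then begin together. Plants of day 8 had been treated daily with dexamethasone, and those of day 0 were collected before the first treatment, from the same genotype with the same transgene. The concentration is given as 2 mM in the sample labels, 1 uM in the series design and 2 uM in the methods. Each library was made from several pooled inflorescences. The study places day 8 at the floral stages of organ differentiation. No untreated plants of the later day were sampled, so 8 days of treatment, 8 days of plant age and the floral stage cannot be told apart.

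In a wild-type shoot the inflorescence meristem forms floral meristems on its flanks. LEAFY (LFY) and AP1 give them floral identity, and MADS-domain proteins then specify the 4 whorls of organs. A-function genes act in sepals and petals, B-function genes (AP3 and PI) in petals and stamens, and the C-function gene AG in stamens and carpels. SEPALLATA proteins serve as partners in each of these complexes. As organs grow, cells leave the division cycle, expand and differentiate, and jasmonate later controls stamen maturation besides its role in responses to wounding.

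Of the 20971 genes in the table, 19105 had at least 1 FPKM (fragments per kilobase of transcript, scaled to the fragments of the library) in at least 2 of the 6 libraries and were tested. Every change below is the difference of mean log2(FPKM + 1), day 8 minus day 0, ± SE, and each adjusted p comes from limma with Benjamini-Hochberg adjustment over all tested genes. Rises, falls and changes are those with an adjusted p under 0.05 and at least a 2-fold difference in FPKM + 1. In this comparison 5627 genes changed, which is 29.5% of those tested. Of these, 2707 rose (14.2%) and 2920 fell (15.3%). Large changes were mostly rises, with 676 genes at least 8-fold higher and 80 at least 8-fold lower in FPKM + 1. The median change over all tested genes was -0.19, and the medians of gene groups below are to be read against it. When the columns were rescaled so that the median gene did not move, 3164 genes rose and 2136 fell, so rises made up 59.7% of the changes after rescaling and 48.1% before. Because the tissue was sampled in bulk, fewer cells of a type and less RNA per cell cannot be told apart. The deposited columns had all been given one distribution, so sequencing depth is unknown and the lowest values, near 0.01 FPKM, are shared by many genes and are not measured levels.

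**Figure D1:**
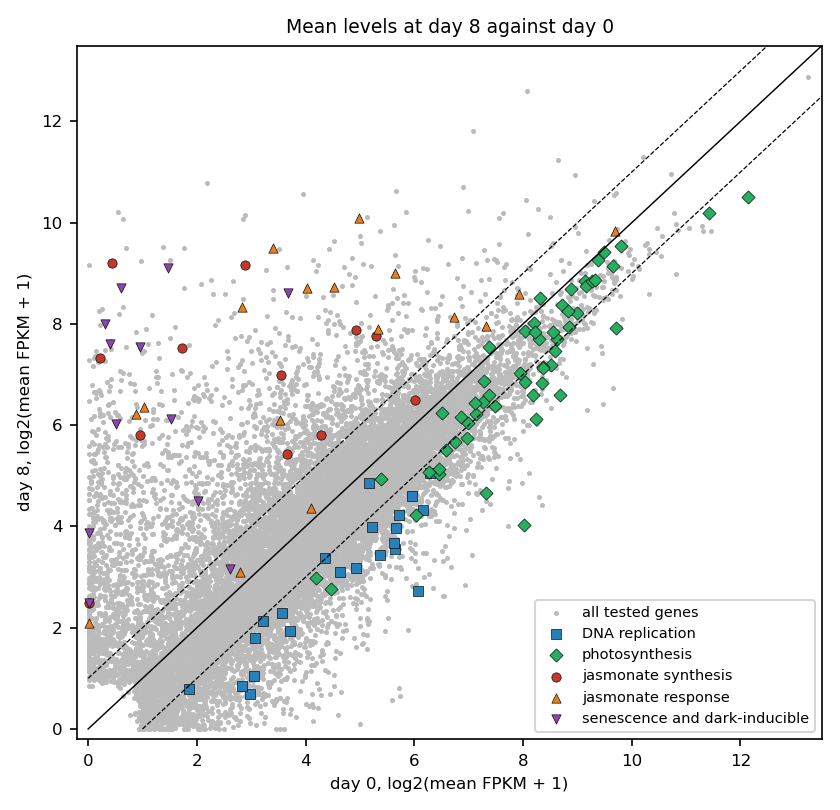
Each grey point is 1 of the 19105 tested genes, with its mean level over 3 day 8 libraries on the vertical axis and over 3 day 0 libraries on the horizontal axis, both as log2(mean FPKM + 1). The solid line marks equal levels and the dashed lines a 2-fold difference. Most jasmonate and dark-inducible genes lie above the upper dashed line, and 20 of 22 DNA replication genes fell. Photosynthesis genes lie mostly below the solid line, and 23 of 55 fell.

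The libraries were first set against markers of the tissue they should hold. STM, which keeps shoot meristem cells undifferentiated, had 36.9, 33.2 and 53.8 FPKM at day 8, against 124, 134 and 145 FPKM at day 0, and LFY had 119, 102 and 96.3 FPKM at day 8, against 28, 31.8 and 32 FPKM at day 0. Transcripts of both were present at each end. The stem cell regulators WUS and CLV3 were low throughout. WUS had 2.44, 2.26 and 4.05 FPKM at day 8, against 5.1, 5.7 and 6.74 FPKM at day 0, and CLV3 had 0.58, 0.785 and 1.65 FPKM at day 8, against 2.79, 3 and 2.8 FPKM at day 0. The tapetum regulators TDF1 (1.03, 1.07 and 0.196 FPKM at day 8, against 0.331, 0.643 and 0.504 FPKM at day 0) and AMS (mean 0.17 FPKM at day 8 and 0.138 FPKM at day 0) were near the lower limit. A9, MS2 and 10 other tapetum and pollen wall genes, the root hair genes and most mature pollen genes listed as markers have no values in the table. Their levels could not be read. The seed albumin gene SESA1 had 2.82, 4.76 and 0.247 FPKM at day 8, against 0.0091, 0.0091 and 0.226 FPKM at day 0 (1.49 ± 0.51), and its call ended without any 1 of the day 0 libraries (adjusted p of 0.0589 to 0.0856 in limma). Leaf genes were present at both ends, with RBCS1A, the small subunit of Rubisco, at 1365, 1252 and 1752 FPKM at day 8, against 4498, 4498 and 4498 FPKM at day 0. Equal values at this height come from the common distribution, in which genes of the same rank share a value.

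The day 8 libraries were less alike than those of day 0. Across genes, which are not independent replicates, log2 levels correlated at 0.963 to 0.972 among day 8 libraries and at 0.992 to 0.994 among day 0 libraries, and the pooled SD was 0.338 at day 8 and 0.156 at day 0. Replicate 2 of day 8 lay farthest from day 0. It was the highest of the 3 for 1554 of the 2707 genes that rose (57.4%) and the lowest for 1552 of the 2920 that fell (53.2%). Replicate 3 lay closest, as the lowest for 1592 of the genes that rose (58.8%) and the highest for 1642 of those that fell (56.2%). Without replicate 2 of day 8, 2516 genes rose and 2700 fell, and without replicate 3 of day 8, 2842 rose and 3249 fell.

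Of 14 genes of floral organ identity that were tested, 7 rose and 2 fell, with a median change of 0.93. AP3, the B-function gene of petals and stamens, had 166, 136 and 189.7 FPKM at day 8, against 0.184, 0.0091 and 0.174 FPKM at day 0 (7.19 ± 0.15, adjusted p = 3.21e-07). It was next to absent at day 0 and among the more abundant of these genes in every day 8 library. Its partner PI had 134, 125 and 161 FPKM at day 8, against 20.17, 26.8 and 28.4 FPKM at day 0 (2.44 ± 0.15), so both B-function genes rose but PI was already measured before induction. The C-function gene AG had 19.6, 14.3 and 22.9 FPKM at day 8, against 0.111, 0.0945 and 0.161 FPKM at day 0 (4.13 ± 0.19, adjusted p = 3.09e-06). The SEPALLATA genes did not move as one. SEP2 had 132, 87.7 and 110.0 FPKM at day 8, against 1.75, 3.7 and 3.77 FPKM at day 0 (4.79 ± 0.24). SEP3 had 49.5, 45.7 and 55.9 FPKM at day 8, against 0.836, 1.11 and 1.13 FPKM at day 0 (4.66 ± 0.13), and SEP1 had 30.1, 24.7 and 28.8 FPKM at day 8, against 1.47, 2.15 and 2 FPKM at day 0 (3.33 ± 0.14). SEP4 was at a like level at both ends, with 29.3, 20.8 and 22.5 FPKM at day 8, against 26.9, 27.8 and 28.8 FPKM at day 0 (-0.21 ± 0.13, adjusted p = 0.191), and the day 8 range reached into that of day 0.

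AP1 itself had 225, 148 and 224 FPKM at day 8, against 91.1, 93.4 and 101 FPKM at day 0 (1.03 ± 0.16, adjusted p = 0.000893). These values do not separate the AP1-GR transgene from the mutant gene, and the call ended without day 8 replicate 1 (0.93) or replicate 3 (0.93), which put the change just under the 2-fold minimum. Its paralog CAL, measured as a mutant gene, fell to 12.3, 7.31 and 11.6 FPKM at day 8, against 52.6, 42.4 and 49 FPKM at day 0 (-2.13 ± 0.19, adjusted p = 4.82e-05). AGL6, a MADS gene close to the SEPALLATA clade, also fell, with 7.57, 8.29 and 13.4 FPKM at day 8, against 42.3, 38.4 and 38.9 FPKM at day 0 (-1.96 ± 0.19). Among the 5 that did not pass, AP2 was at 0.60 ± 0.14, FUL at 0.00 ± 0.16, SHP1 at 0.83 ± 0.21 and the Bsister gene AGL63 at -0.92 ± 0.16. Replicate 3 was the highest day 8 library for 4 of the 7 members that rose and the lowest for 0. SHP2, STK and TT16, which act in later carpels and ovules, stayed under the filter on low values and were not tested.

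**Figure D2:**
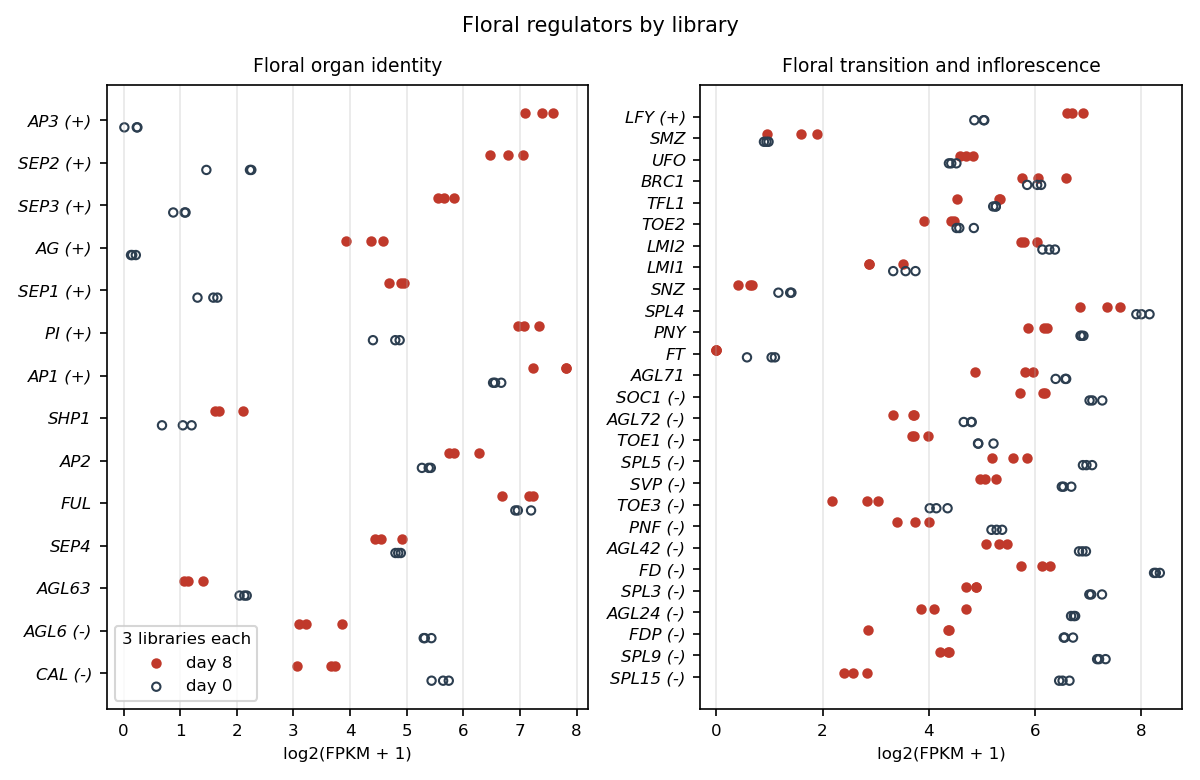
Levels in single libraries, as log2(FPKM + 1) on the horizontal axis, of the tested organ identity genes (left) and of the floral transition and inflorescence genes (right), ordered by change. Filled points are the 3 day 8 libraries and open points the 3 day 0 libraries, and (+) and (-) mark genes that rose or fell. AP3, the SEPALLATA genes SEP1 to SEP3 and AG lie far to the right of their day 0 points, whereas SPL15, SPL9, FD and AGL24 lie to the left.

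Genes of the floral transition and the inflorescence moved the other way. Of 27 tested, 14 fell and 1 rose, and the median change was -1.11. The squamosa promoter binding protein-like genes SPL15 and SPL9, which promote flowering, fell most. SPL15 had 6.13, 4.98 and 4.28 FPKM at day 8, against 99.5, 90.8 and 86.8 FPKM at day 0 (-3.94 ± 0.13, adjusted p = 8.92e-07). SPL9 had 19.5, 17.64 and 19.7 FPKM at day 8, against 143, 147 and 159.9 FPKM at day 0 (-2.92 ± 0.088). Neither gene's day 8 libraries came near those of day 0. FD, the bZIP partner of the florigen FT, had 69.6, 52.4 and 77 FPKM at day 8, against 326, 302 and 309 FPKM at day 0 (-2.23 ± 0.14), and its paralog FDP had 19.9, 6.25 and 19.5 FPKM at day 8, against 93.3, 104 and 92.2 FPKM at day 0 (-2.74 ± 0.37). Among MADS genes that integrate or hold back flowering, AGL24 (-2.50), AGL42 (-1.60), SVP (-1.48), AGL72 (-1.17) and SOC1 (-1.11) fell, and AGL71 (-0.96) did not reach the 2-fold minimum. LFY was the member that rose (1.75 ± 0.11, adjusted p = 9.49e-06). TFL1, which keeps the inflorescence indeterminate, did not pass, at 39.1, 22 and 39.5 FPKM at day 8, against 37.4, 36.1 and 37.4 FPKM at day 0 (-0.18 ± 0.21), and neither did UFO, the F-box partner of LFY (0.26 ± 0.10). After rescaling, 12 of the 27 fell and 1 rose.

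Shoot meristem genes fell in 5 of 18 tested members and rose in 0, with a median change of -0.84. The class I KNOX homeobox gene KNAT1 had 32, 24.5 and 64.4 FPKM at day 8, against 171, 175 and 184 FPKM at day 0 (-2.22 ± 0.30, adjusted p = 0.000403). STM (-1.71 ± 0.17) and KNAT2 (-1.54 ± 0.19) fell with it, whereas KNAT6 did not (0.26 ± 0.15). The other members that fell were HAM2 (-1.20), a GRAS protein that works with WUS, and the receptor kinase gene BAM2 (-1.35). The changes of WUS (-0.83), CLV3 (-0.98) and its receptor gene CLV1 (-0.98) were negative and did not reach the 2-fold minimum.

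Organ boundary genes fell in 7 of 14 and rose in 2, with a median change of -1.01. The lateral organ boundary genes LOB (-2.62) and JLO (-2.45) fell most, followed by LSH4 (-2.04), the BTB proteins BOP1 (-1.48) and BOP2 (-1.27), and CUC3 (-1.35) and CUC2 (-1.02). The 2 that rose act between or within floral whorls. SUP, which limits stamen number, had 3.62, 5.01 and 6.5 FPKM at day 8, against 0.0091, 0.0091 and 0.133 FPKM at day 0 (2.50 ± 0.21). RBE, needed for petals, had 4.01, 4.13 and 4.07 FPKM at day 8, against 0.145, 0.0091 and 0.0082 FPKM at day 0 (2.27 ± 0.15). Both were at the shared lowest values in 2 of the 3 day 0 libraries.

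Among organ polarity genes 6 of 17 fell and 1 rose, with a median change of -0.72. The KANADI gene KAN3 rose (1.86 ± 0.13), and CNA (-1.30), ETT (-1.16), ARF4 (-1.14), KAN4 (-1.08), KAN2 (-1.05) and YAB5 (-1.04) fell. The calls of ETT (-0.99) and ARF4 (-0.91) ended without day 8 replicate 2, and after rescaling 1 of the 17 fell. The abaxial YABBY gene FIL, at 479, 288 and 463 FPKM at day 8, against 233, 248 and 238 FPKM at day 0, and YAB3 did not pass.

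Organ growth genes moved in both directions, 7 of 28 up and 6 down, against 14.2% and 15.3% of all tested genes. Their median change of -0.28 was near the -0.19 of all tested genes. JAG, a zinc finger protein that drives the growth of sepals and petals, had 23.7, 29.4 and 43.3 FPKM at day 8, against 3.2, 3.22 and 1.85 FPKM at day 0 (3.12 ± 0.25), and its paralog NUB also rose (1.91 ± 0.18). TCP13, a class II TCP gene, had 33, 47.5 and 40.7 FPKM at day 8, against 3.67, 4.36 and 2.47 FPKM at day 0 (3.21 ± 0.20), while TCP17 (-2.18) and TCP4 (-1.41) of the same class fell. ARGOS, which prolongs organ growth, rose (3.12 ± 0.21), as did BPE (1.22), which limits petal size. Of the growth-regulating factors, GRF4 (-2.58) and GRF6 (-2.25) fell, and GRF8 rose (1.21). AIL5 rose (1.29) and AIL7 fell (-2.47), whereas their relative ANT was at 146, 96.2 and 134 FPKM at day 8, against 126, 124 and 130.2 FPKM at day 0.

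Genes of the gynoecium and ovule rose in 5 of 16 members and fell in 4, with a median change of -0.32. CRC, a YABBY gene of carpels and nectaries, had 18.3, 20.195 and 33 FPKM at day 8, against 1.4, 1.21 and 1.4 FPKM at day 0 (3.37 ± 0.22, adjusted p = 1.24e-05). The NGATHA genes of style formation rose together, with changes of 2.197 for NGA1, 2.13 for NGA2 and 1.81 for NGA3, while NGA4 did not pass (-0.52). For all 5 members that rose, replicate 3 was the highest day 8 library. HEC1, a bHLH protein of the transmitting tract, rose (1.38 ± 0.17), and INO of the ovule coat (-1.71), STY1 (-1.59), STY2 (-1.35) and SHI (-1.35) fell. In the early anther list 2 of 11 rose and 1 fell, shares close to those over all tested genes (14.2% and 15.3%). SPOROCYTELESS (AT4G27330, SPL in the table), which starts the sporogenous lineage, had 1.94, 1.95 and 2.89 FPKM at day 8 and was at the lowest shared values in all day 0 libraries. The receptor kinase gene EMS1 rose just past the minimum (1.05 ± 0.15), a call that ended without day 8 replicate 1 (0.90). Of 23 meiosis genes 8 fell and 0 rose, with a median change of -0.84, and 5 fell after rescaling. DMC1, the meiotic recombinase, had 1.75, 1.52 and 2.68 FPKM at day 8, against 7.05, 7.78 and 5.34 FPKM at day 0 (-1.38 ± 0.20). Of 6 tapetum and pollen wall genes tested, 1 fell, and 0 fell after rescaling.

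DNA replication genes fell in 20 of 22 tested members and rose in 0, with a median change of -1.64, against 15.3% lower among all tested genes. PCNA1, the sliding clamp of DNA polymerase, had 5.38, 6.33 and 5.04 FPKM at day 8, against 60.6, 68.6 and 68.8 FPKM at day 0 (-3.35 ± 0.11, adjusted p = 9.11e-07). Every one of the 6 genes of the MCM helicase fell, with changes of -2.11 for MCM3, -1.94 for MCM2, -1.84 for MCM5, -1.71 for MCM7, -1.56 for MCM6 and -1.52 for MCM4. MCM5 had 23.3, 18 and 16.3 FPKM at day 8, against 72.4, 72.2 and 66.5 FPKM at day 0, and as with PCNA1 the days were far apart. The origin recognition gene ORC2 (-2.28) and the loading factor gene CDC6 (-1.98) fell as well, and so did the chromatin assembly genes FAS1 (-1.79) and FAS2 (-1.76). The 2 that did not pass were ICU2 (-0.98 ± 0.14), the polymerase alpha subunit, and RNR2A (-0.31 ± 0.084), a subunit of ribonucleotide reductase. After rescaling 18 of the 22 fell.

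E2F factors bind upstream of replication genes in plants and animals, so the 250 bases before each annotated gene start were read from the RefSeq annotation of TAIR10.1 and searched on both strands for TTTCCCGC or TTTGGCGC. Such a match was present for 9 of the 22 replication genes (40.9%) and for 201 of 18821 tested genes with a window (1.07%). Of the 9, 8 fell, as did 20 of all 22 replication genes. The match therefore did not mark out the genes that fell within this list. A match is a description of the sequence and not a measured binding site. The windows are shown for the 3 of these 8 genes with the largest loss in FPKM, with the match in capitals and all else in lower case, 5' to 3' on the strand of the gene. The match lies 19 bases before the gene start in MCM5 (chr2:3527501-3527750, minus strand), 170 in MCM3 (chr5:18773707-18773956, minus strand) and 35 in MCM4 (chr2:7130730-7130979, minus strand), counted from its first base.
MCM5: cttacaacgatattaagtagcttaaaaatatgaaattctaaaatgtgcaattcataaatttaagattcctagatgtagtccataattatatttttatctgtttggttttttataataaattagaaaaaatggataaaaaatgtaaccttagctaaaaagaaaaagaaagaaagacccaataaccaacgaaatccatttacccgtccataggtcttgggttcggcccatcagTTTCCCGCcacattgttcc
MCM3: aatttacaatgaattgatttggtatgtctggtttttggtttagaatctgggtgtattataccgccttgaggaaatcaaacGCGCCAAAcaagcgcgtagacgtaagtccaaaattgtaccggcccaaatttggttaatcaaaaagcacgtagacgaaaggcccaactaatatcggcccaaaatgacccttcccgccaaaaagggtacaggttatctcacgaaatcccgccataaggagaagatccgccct
MCM4: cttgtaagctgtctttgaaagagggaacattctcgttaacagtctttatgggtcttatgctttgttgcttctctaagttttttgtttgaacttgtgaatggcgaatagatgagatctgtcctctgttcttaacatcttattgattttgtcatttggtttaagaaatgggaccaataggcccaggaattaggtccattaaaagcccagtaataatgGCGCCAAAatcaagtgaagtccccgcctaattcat

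Mitosis genes fell in 16 of 26 and rose in 0, with a median change of -1.20. CYCA1;1, an A-type cyclin, had 5.92, 3 and 6.66 FPKM at day 8, against 32.7, 35.6 and 31.8 FPKM at day 0 (-2.52 ± 0.23). The Aurora kinase genes AUR1 (-1.60) and AUR2 (-1.86), PLE of the cell plate array (-1.76), the B-type kinase gene CDKB1;2 (-1.74) and the 4 CYCB1 cyclin genes fell, whereas AUR3 (-0.19), CYCB2;4 (-0.32) and EDE1 (-0.36) did not pass. KNOLLE (KN), the cytokinesis syntaxin, was at 63.3, 52.7 and 75.8 FPKM at day 8, against 108, 116 and 115 FPKM at day 0 (-0.83 ± 0.13), lower in all 3 day 8 libraries but under the 2-fold minimum. Among D-type cyclins and inhibitors of cyclin-dependent kinases 6 of 18 fell, CYCD1;1 most (-1.99), and the inhibitor gene KRP7 rose (1.33 ± 0.17). As families, 18 of 43 cyclin genes and 12 of 36 kinesin genes fell and 0 of either rose, and core histone genes fell in 10 of 41 and rose in 2. After rescaling these counts of falls were 14, 8 and 7, and that of mitosis genes was 13.

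Genes described as ribosomal proteins, without those described as organellar, fell in 120 of 322 tested members (37.3%) and rose in 5, with a median change of -0.84. This count depended on the scaling, since 64 fell and 7 rose after rescaling. Of the 6 genes with the largest loss in FPKM in the whole comparison, 1 belongs here. AT3G06700, which encodes an L29e protein, had 1011, 926 and 987 FPKM at day 8, against 2582, 2582 and 2377 FPKM at day 0 (-1.37 ± 0.17, adjusted p = 0.000239). The 5 genes that rose, AT4G26060, AT2G03130, AT3G01170, RPL18AA and AT5G15260, are described in the table as L18ae, L12 or ClpS, and L34e family proteins. Genes of this family often have near-identical copies, among which reads are shared by estimate.

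Promoters of plant ribosomal protein genes carry the telo-box (AAACCCTA) and site II elements (TGGGCC or TGGGCT). In the same windows, on both strands, site II was present for 185 of the 322 genes (57.5%), against 23.2% of all tested genes with a window, and the telo-box for 49 (15.2%), against 3.64%. Of the members that changed, 17 held both elements. Windows are shown for the 2 of these with the largest difference in FPKM, both lower at day 8, with both elements in capitals. AT3G11120 (chr3:3480770-3481019, plus strand) encodes an L41 protein and had 425, 362 and 335 FPKM at day 8, against 1037, 844 and 768 FPKM at day 0 (-1.23 ± 0.16). AT1G52300 (chr1:19476235-19476484, minus strand) encodes a zinc-binding ribosomal protein and had 230.2, 235 and 248 FPKM at day 8, against 565, 504 and 501 FPKM at day 0 (-1.14 ± 0.10). In AT1G52300 a pair of site II matches on opposite strands adjoin.
AT3G11120: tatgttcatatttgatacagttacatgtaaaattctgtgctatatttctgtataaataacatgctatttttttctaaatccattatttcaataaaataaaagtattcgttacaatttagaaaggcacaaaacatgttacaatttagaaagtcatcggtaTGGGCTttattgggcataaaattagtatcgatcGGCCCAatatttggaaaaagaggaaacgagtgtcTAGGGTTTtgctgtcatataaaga
AT1G52300: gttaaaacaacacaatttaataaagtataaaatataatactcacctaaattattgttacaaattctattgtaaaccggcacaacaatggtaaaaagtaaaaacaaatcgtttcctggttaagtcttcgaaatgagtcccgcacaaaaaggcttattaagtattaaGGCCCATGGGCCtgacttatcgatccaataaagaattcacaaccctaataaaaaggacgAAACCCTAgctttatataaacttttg

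Photosynthesis genes fell in 23 of 55 tested members and rose in 0, with a median change of -0.93. Estimated levels of the small subunit genes of Rubisco changed to different degrees. Where gene copies are similar, reads are divided among them by estimate. RBCS1B had 3.04, 23.5 and 19.5 FPKM at day 8, against 193, 285 and 300.4 FPKM at day 0 (-4.34 ± 0.62, adjusted p = 0.000512). RBCS2B changed by -2.90 ± 0.52 and RBCS3B by -1.80 ± 0.20, and RBCS1A, which lost more FPKM than any other gene that fell, by -1.64 ± 0.23. Among the light-harvesting genes LHCB1.1 (-2.10) and LHCB1.2 (-2.09) fell most, and the 4 LHCA genes of photosystem I did not pass, with changes of -0.15 to -0.23. LHCB1.3 had 987, 1059 and 1446 FPKM at day 8, against 2829.7, 2829.7 and 2582 FPKM at day 0 (-1.26 ± 0.21). Of 12 chlorophyll synthesis genes 2 fell, a share of 16.7% near the 15.3% of all tested genes, and 1 fell after rescaling. The 2 were PORC (-1.32) and PORA (-1.05), of which PORA lost its call without day 8 replicate 3 (-0.96). After rescaling, 17 of the 55 photosynthesis genes fell.

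**Figure D3:**
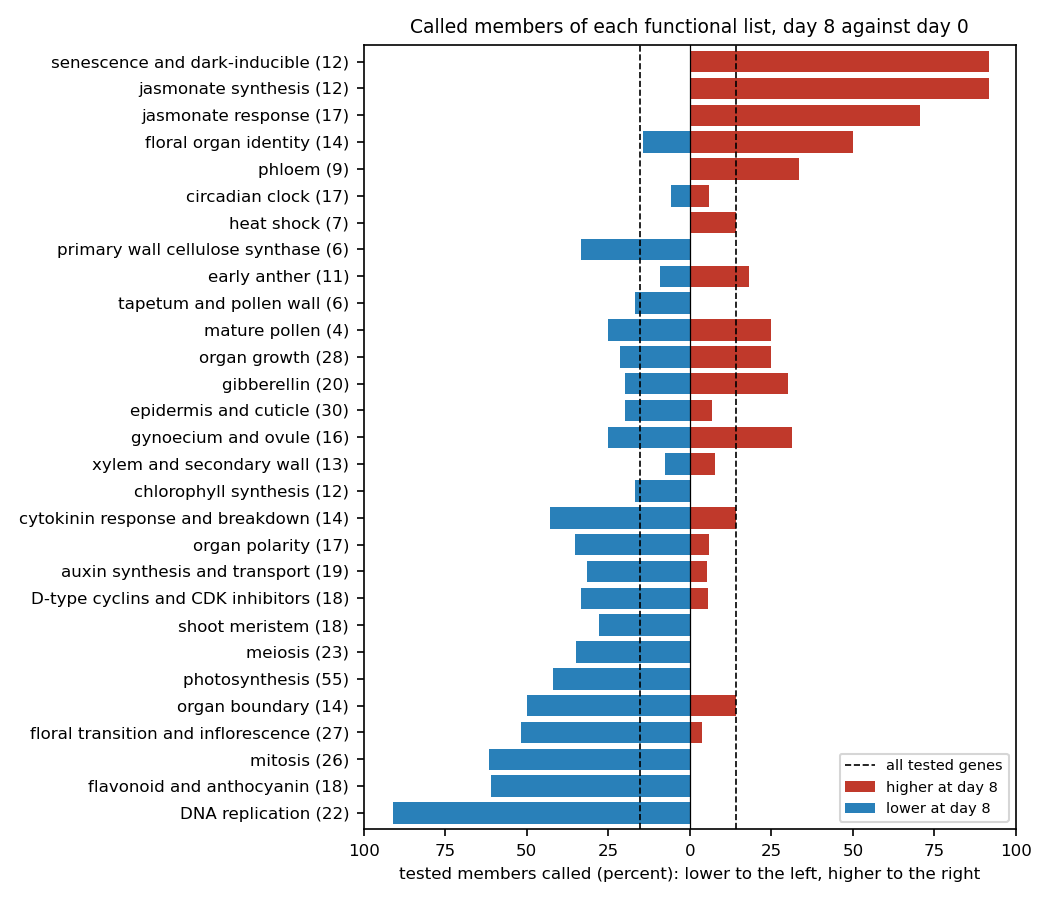
Bars give the percent of tested members that rose (to the right) and fell (to the left) at day 8 for each list of at least 4 tested genes, whose number is in parentheses. Lists are ordered by median change, and the dashed lines mark 14.2% and 15.3%, the shares over all tested genes. Jasmonate and senescence lists reach farthest to the right and DNA replication farthest to the left.

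Flavonoid and anthocyanin genes fell in 11 of 18 and rose in 0, with a median change of -1.53, and 11 also fell after rescaling. Chalcone synthase (TT4), the entry enzyme, had 49.8, 30.5 and 17 FPKM at day 8, against 214, 288 and 329 FPKM at day 0 (-3.16 ± 0.35, adjusted p = 0.000142). The chalcone isomerase-like gene CHIL (-2.96), flavonol synthase FLS1 (-2.64) and flavanone hydroxylase F3H (-2.49) fell with it. For these 4 genes day 8 replicate 3 was the lowest library. The later anthocyanin enzymes LDOX (-2.58 ± 0.16) and DFR (-2.24 ± 0.29) and the transferase TT19 (-2.55 ± 0.32) fell to between 0.0382 and 1.55 FPKM in the day 8 libraries. The flavonol regulators MYB11, MYB12 and MYB111 did not pass, with changes of -0.45, -0.21 and -0.12.

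Jasmonate genes rose nearly as a whole. Of the 12 synthesis genes tested 11 rose and 0 fell, with a median change of 3.17, and of 17 genes of the response 12 rose and 0 fell, with a median of 2.55, against 14.2% higher among all tested genes. Allene oxide cyclase closes the ring of the hormone precursor. AOC2 had 736, 759 and 262 FPKM at day 8, against 0.145, 0.328 and 0.596 FPKM at day 0 (8.62 ± 0.39, adjusted p = 2.84e-06). AOC1 changed by 6.99 ± 0.33 and AOC3 by 6.12 ± 0.37, whereas AOC4 did not pass, with 92.5, 74 and 103 FPKM at day 8, against 58.4, 63.3 and 68.5 FPKM at day 0. Reads are shared by estimate among these close copies. The first oxygenation is made by lipoxygenases, and LOX3 had 287, 191 and 74.7 FPKM at day 8, against 2.13, 2.55 and 2.24 FPKM at day 0 (5.61 ± 0.42). LOX4 (4.54), LOX2 (2.94) and LOX6 (1.49) rose as well, and so did AOS (3.39), OPR3 (2.43) and JAR1 (1.75), which makes the active isoleucine conjugate. DAD1, the anther lipase that frees the substrate, had 7.11, 4.74 and 1.94 FPKM at day 8 and was at the lowest shared values in all 3 day 0 libraries.

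The JAZ proteins hold MYC transcription factors inactive until the hormone triggers their breakdown, and their own genes are hormone targets. Of the JAZ genes 10 were tested and all 10 rose. JAZ1 had 967, 809.9 and 382 FPKM at day 8, against 8.06, 8.19 and 12.5 FPKM at day 0 (6.01 ± 0.33, adjusted p = 6.52e-06). JAZ9 had 1446, 1022 and 816 FPKM at day 8, against 32.1, 22 and 38 FPKM at day 0 (5.10 ± 0.25). The smallest of these rises was that of JAZ12, with 328, 264 and 251 FPKM at day 8, against 95.6, 103 and 117 FPKM at day 0. MYC2 rose (2.49 ± 0.24), while MYC3 (0.64 ± 0.13), MYC4 (0.29 ± 0.14) and the receptor gene COI1 (0.28 ± 0.095) did not pass. MYB21, a regulator of stamen filaments, had 2.05, 6.81 and 0.991 FPKM at day 8 and was at the lowest shared values at day 0 (1.84 ± 0.45, adjusted p = 0.00725). The storage protein genes VSP1 and VSP2, used in leaves as jasmonate reporters, did not pass, and their libraries overlapped, with VSP1 at 1129, 668 and 943 FPKM at day 8, against 623, 741 and 1108 FPKM at day 0.

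Within day 8 nearly all of the jasmonate genes that rose shared the lowest library, while the highest differed between genes. Replicate 3 was the lowest for 10 of the 11 synthesis genes and 12 of the 12 response genes that rose, against 58.8% of all genes that rose. The lowest day 8 library was nevertheless above every day 0 library for each of the JAZ and AOC genes named. The middle days did not lie on a line between the ends. JAZ9 averaged 112 FPKM at day 2 (n = 2) and 52.5 FPKM at day 4 (n = 3), and JAZ1 46.7 FPKM at day 2 and 25.9 FPKM at day 4, so both were lower at day 4 than at day 2. These middle days are given as levels without a test.

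MYC factors bind the G-box (CACGTG). It was present in the 250-base window of 4 of the 17 response genes (23.5%) and of 1 of the 12 synthesis genes (8.33%), against 7.49% of all tested genes with a window and 10.5% of those that rose. The windows of the 2 response genes with the largest gain in FPKM among the 4 are shown with the G-box in capitals. JAZ2 (chr1:28150447-28150696, minus strand) had 763, 521 and 252 FPKM at day 8, against 53.2, 44.3 and 49.5 FPKM at day 0 (3.22 ± 0.35), and its match starts 66 bases before the gene. JAZ7 (chr2:14572780-14573029, plus strand) had 115, 104 and 25.5 FPKM at day 8, against 0.894, 0.856 and 1.33 FPKM at day 0 (5.09 ± 0.51), and its match starts 34 bases before the gene. No match in a window says only that these letters are not in it.
JAZ2: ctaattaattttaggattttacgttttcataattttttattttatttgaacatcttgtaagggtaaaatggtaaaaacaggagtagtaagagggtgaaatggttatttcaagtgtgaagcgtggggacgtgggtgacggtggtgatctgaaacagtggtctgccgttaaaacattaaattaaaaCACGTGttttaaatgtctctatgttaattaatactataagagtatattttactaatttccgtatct
JAZ7: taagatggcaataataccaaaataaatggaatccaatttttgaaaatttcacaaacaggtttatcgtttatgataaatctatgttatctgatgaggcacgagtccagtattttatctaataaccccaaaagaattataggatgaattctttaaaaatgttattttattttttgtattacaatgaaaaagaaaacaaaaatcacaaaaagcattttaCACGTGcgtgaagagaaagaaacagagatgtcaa

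Genes of senescence and darkness rose in 11 of 12 tested members, with a median change of 5.12. ASN1, an asparagine synthase induced when sugar runs low, had 101, 201 and 280.3 FPKM at day 8, against 0.264, 0.275 and 0.408 FPKM at day 0 (7.09 ± 0.33, adjusted p = 3.15e-06). SEN1, a dark-inducible gene, had 215, 576 and 853 FPKM at day 8, against 1.73, 2.25 and 1.33 FPKM at day 0 (7.43 ± 0.44). For both, replicate 3 of day 8 was the highest library, the reverse of the jasmonate genes. Over the 11 that rose, replicate 3 was the highest day 8 library for 4 and the lowest for 6. DIN11, an oxygenase gene of the same dark-inducible group, had 264, 406 and 99.1 FPKM at day 8, against 0.161, 0.106 and 0.435 FPKM at day 0 (7.49 ± 0.45), with replicate 3 lowest. The senescence regulators NAC092 (5.51 ± 0.15) and NAP (4.59 ± 0.16) rose, as did SAG21 (8.10 ± 0.28) and the branched-chain aminotransferase gene BCAT2 (6.54 ± 0.22). NYE1, which starts chlorophyll breakdown, did not pass, with 7.93, 7.26 and 8.73 FPKM at day 8, against 5.65, 4.43 and 5.28 FPKM at day 0 (0.55 ± 0.14).

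**Figure D4:**
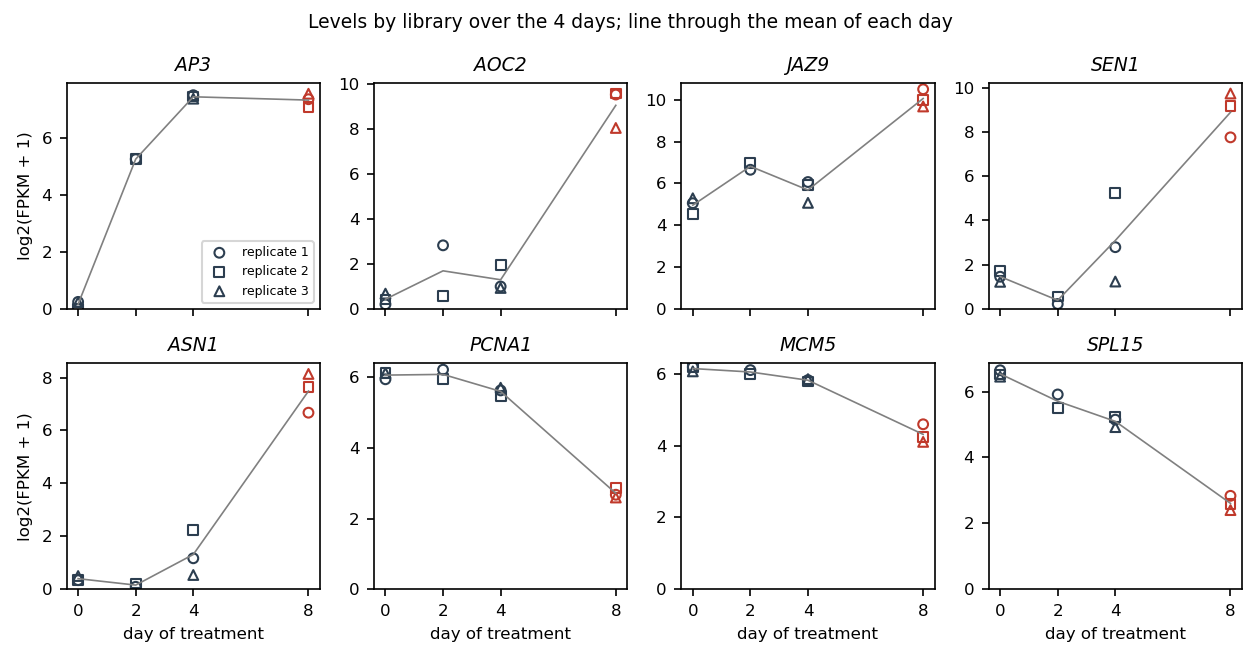
Levels in every library as log2(FPKM + 1) against the day of treatment for 8 genes, with the replicate number as the symbol and a line through the daily means (n = 3, 2, 3 and 3 for days 0, 2, 4 and 8). AP3 had reached its day 8 level by day 4, AOC2 and JAZ9 were far higher at day 8 than on the other days, SEN1 and ASN1 show replicate 3 on top at day 8, and PCNA1 and MCM5 dropped chiefly between days 4 and 8.

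The largest gains in FPKM went to a small set of genes that includes dormancy-associated ones. AT3G15450, described as an aluminium-induced protein, had 4498, 4498 and 9736 FPKM at day 8, against 218, 272 and 315 FPKM at day 0 (4.45 ± 0.33). The DnaJ gene J8 had 3114, 3114 and 4498 FPKM at day 8, against 119, 134 and 153 FPKM at day 0 (4.70 ± 0.19), and ERD15, a dehydration-induced gene, 2829.7, 2582 and 1879 FPKM at day 8, against 365, 439 and 397 FPKM at day 0 (2.58 ± 0.19). The glutathione transferase gene GSTF2, given with its family, came next, and then the related dormancy genes DYL1 and AT2G33830 (DRM2 in the table). DYL1 had 1149, 1494 and 2377 FPKM at day 8, against 105, 129 and 120.1 FPKM at day 0, and AT2G33830 had 1077, 1446 and 2204 FPKM at day 8, against 41.2, 49.8 and 57.2 FPKM at day 0 (4.92 ± 0.25), with replicate 3 the highest for both. On the side of losses, RBCS1A, LHCB1.3 and AT3G06700 stood with GRP7, a clock-controlled RNA-binding protein (803, 699 and 1252 FPKM at day 8, against 2204, 3114 and 3114 FPKM at day 0), the lipid transfer gene LTP6 (-1.47 ± 0.20) and the peroxidase gene PRXR1 (-1.93 ± 0.29).

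On the log2 scale the 12 largest rises were those of genes under 4.2 FPKM in every day 0 library. RAP2.6, an ethylene response factor, had 1407, 1365 and 763 FPKM at day 8, against 0.0091, 0.118 and 1.27 FPKM at day 0 (9.70 ± 0.34, adjusted p = 1.16e-06). BCB, a blue copper-binding protein, had 897, 1566 and 774 FPKM at day 8, against 0.195, 0.503 and 1 FPKM at day 0 (9.39 ± 0.28). KMD3, a kelch-repeat F-box protein that acts in cytokinin signalling, had 548, 728 and 432 FPKM at day 8 and was at the shared lowest values in each day 0 library (9.11 ± 0.18). PGIP1, an inhibitor of fungal polygalacturonases, was even across libraries, with 664, 755 and 741 FPKM at day 8, against 2.44, 2.16 and 2.51 FPKM at day 0 (7.74 ± 0.090, adjusted p = 2.04e-08). The other 8 were the legume lectin genes AT3G15356 (8.75) and AT3G16530 (7.92), AOC2, the glutathione transferase genes GSTF2 (8.49) and GSTF7 (7.86), the oxygenase gene AT5G05600 (8.29), Rap2.6L (8.17) and SAG21.

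The 12 largest falls were smaller in size, from -5.14 to -3.93. AT3G59270, an FBD-like domain gene, fell to 0.172, 0.317 and 1.23 FPKM at day 8, against 53.6, 47.6 and 56.4 FPKM at day 0 (-5.14 ± 0.24). LBD19, a lateral organ boundary domain gene, had 3.35, 1.23 and 4.04 FPKM at day 8, against 57.6, 57.7 and 60 FPKM at day 0 (-4.02 ± 0.28), and the pectate lyase gene AT1G67750 0.959, 0.144 and 1.12 FPKM at day 8, against 53.9, 51.9 and 50 FPKM at day 0 (-4.98 ± 0.23). The MYB-related gene RL4 (-4.31), the bHLH gene AT4G00870 (-3.93), SPL15, RBCS1B, the germin gene GER3 (-4.09) and the cytochrome P450 gene CYP96A12 (-3.94) were among them. So were AT5G59305 (-5.04) and AT4G17990 (-4.92), which have no description in the table, and CPuORF30 (-4.11), an upstream reading frame whose reads cannot be told from those of the gene it precedes.

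By gene family, several classes of transcription factors rose well beyond the 14.2% of all tested genes. Of 92 AP2/ERF genes 47 rose and 12 fell, of 53 WRKY genes 27 rose and 6 fell, and of 74 NAC genes 30 rose and 9 fell. WRKY40, a repressor in defence signalling, had 329, 432 and 115 FPKM at day 8, against 0.323, 0.59 and 0.514 FPKM at day 0 (7.44 ± 0.43), and WRKY33, which is needed for resistance to necrotrophic fungi, had 525, 486 and 149.8 FPKM at day 8, against 3.82, 5.45 and 4.95 FPKM at day 0 (5.89 ± 0.44). In both genes replicate 3 was the lowest of the day 8 libraries, as in 20 of the 27 WRKY, 24 of the 30 NAC and 39 of the 47 AP2/ERF genes that rose. WRKY proteins bind the W-box, and TTGACC or TTGACT stood on either strand in the 250-base window of 36.6% of all genes that rose, 23.7% of those that fell and 28.0% of those tested. Of other motifs searched, the G-box (10.5% against 7.49%), TGACGT (10.3% against 8.00%) and GATAAG (16.2% against 12.4%) were also more frequent in genes that rose than in those tested. So was AAAATATC (7.4% against 6.1%). GCCGCC was level (2.01% against 2.00%), and TAACGG (4.9% against 6.6%) and the E2F, telo-box and site II matches were less frequent. A link of the W-box to the WRKY genes was not tested. The NAC genes of the water stress response RD26 (6.53), NAC019 (6.15) and AT3G15500 (7.005) rose, and of this family CUC3 and NAC025 (-2.07) fell. WRKY12, which holds back pith cell walls, was the largest fall in its family, with 0.945, 1.72 and 2.97 FPKM at day 8, against 17.7, 18.8 and 19.7 FPKM at day 0 (-2.84 ± 0.24). Among AP2/ERF genes the largest fall was that of PUCHI (-2.50 ± 0.30), which acts in floral meristem identity and bract suppression.

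Other regulator families differed in direction. MADS-box genes rose in 8 of 38 and fell in 9 (9 and 7 after rescaling), against 14.2% and 15.3% of all tested genes, and the largest fall was that of MAF4, a repressor of flowering (-2.97 ± 0.23). R2R3 MYB genes rose in 23 of 67 and fell in 14 (23 and 11 after rescaling), with MYB15 (6.38) at one end and MYB82 (-3.60) at the other. Of 87 bHLH genes 22 rose (25.3%) and 19 fell (21.8%), against the same shares of all tested genes. LBD genes fell in 8 of 14 and rose in 1, SPL genes fell in 6 of 17 and rose in 3, HD-ZIP genes fell in 8 of 22 and rose in 2, and CLE peptide genes fell in 8 of 19 and rose in 3. Among the HD-ZIP genes GL2, the trichome regulator, had 1.06, 0.298 and 1.23 FPKM at day 8, against 17.56, 16.8 and 18 FPKM at day 0 (-3.34 ± 0.21). TCP genes fell in 5 of 21 and rose in 1, with a median of -0.08 that was 0.11 after rescaling.

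Families of defence and detoxification moved upward. Glutathione S-transferase genes rose in 28 of 55 and fell in 9, UDP-glycosyltransferase genes rose in 44 of 96 and fell in 9, and class III peroxidase genes rose in 15 of 25 and fell in 4. GSTF2 had 971, 2829.7 and 1494 FPKM at day 8, against 3.97, 2.52 and 4.1 FPKM at day 0 (8.49 ± 0.35, adjusted p = 2.23e-06), with replicate 2 the highest. UGT73B4 had 78.9, 238 and 111 FPKM at day 8, against 0.0091, 0.0091 and 0.174 FPKM at day 0 (6.92 ± 0.36). The drop of the anthocyanin-linked transferase TT19, given above, ran against its family. Lectin genes rose in 26 of 61 and fell in 3, and cysteine-rich receptor kinase genes, whose products sit at the cell surface, rose in 12 of 19 and fell in 0. Cytochrome P450 genes rose in 42 of 125 and fell in 22, with CYP94B3, which inactivates the jasmonate conjugate, at 98, 90.3 and 34.3 FPKM at day 8, against 0.204, 0.215 and 0.446 FPKM at day 0 (5.73 ± 0.37). PAD3, the last enzyme of camalexin synthesis, rose as well (4.47 ± 0.39). The median of the P450 family was -0.10 and turned to 0.11 after rescaling.

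Calcium sensors with EF hands rose in 22 of 51 and fell in 2. TCH3, a touch-inducible calmodulin-like gene, had 863, 1752 and 784 FPKM at day 8, against 5.95, 6.01 and 7.32 FPKM at day 0 (7.16 ± 0.28). TCH4, a touch-inducible xyloglucan endotransglucosylase gene, had 159, 152 and 53.6 FPKM at day 8, against 4.36, 16.2 and 5.4 FPKM at day 0 (3.72 ± 0.53), and here the values within each day differed by several fold. Among 20 XTH genes, of the same enzyme class, 9 rose and 4 fell.

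**Figure D5:**
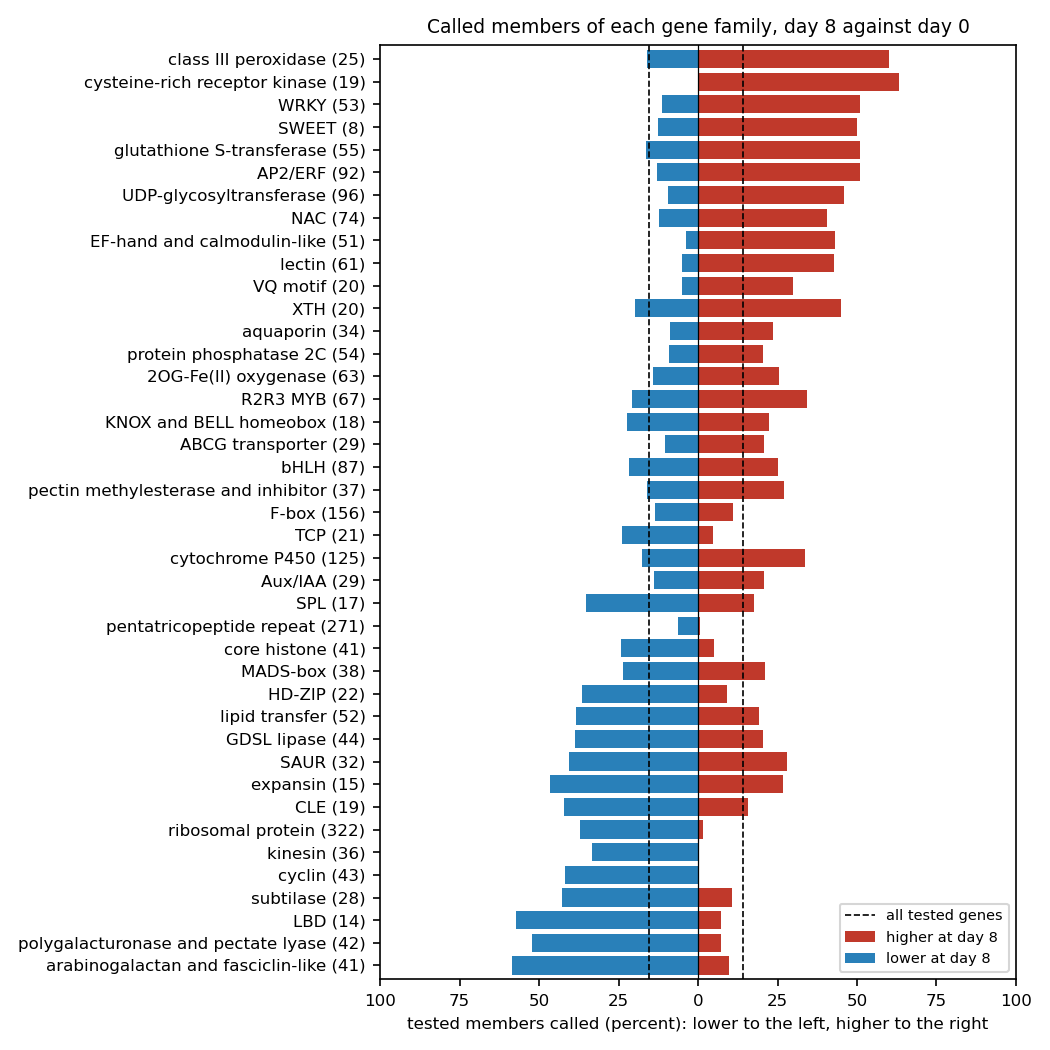
Bars give the percent of tested members that rose (to the right) and fell (to the left) at day 8 for each gene family, whose number of tested members is in parentheses. Families are ordered by median change, and the dashed lines mark 14.2% and 15.3%, the shares over all tested genes. Families of defence, detoxification and stress-related transcription factors lie at the top and those of cell walls, ribosomes and cell division at the bottom.

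Cell wall families fell more often than they rose, apart from XTH and pectin methylesterase genes. Arabinogalactan and fasciclin-like protein genes fell in 24 of 41 and rose in 4, and genes of polygalacturonases and pectate lyases, which cut pectin, fell in 22 of 42 and rose in 3. AGP25 had 6.87, 6.11 and 11.6 FPKM at day 8, against 105, 99.6 and 97.8 FPKM at day 0 (-3.52 ± 0.20), whereas AGP10 rose, with 368, 305 and 92.8 FPKM at day 8, against 25.6, 27.9 and 17.8 FPKM at day 0 (3.17 ± 0.47). Subtilase genes fell in 12 of 28 and rose in 3. Expansins, which loosen the wall, fell in 7 of 15 and rose in 4, among them EXPB3 (-3.07 ± 0.25) downward and the expansin-like gene EXLA1 (3.75 ± 0.43) upward. Pectin methylesterases and their inhibitors rose in 10 of 37 and fell in 6, against 14.2% and 15.3% of all tested genes. Their share of falls was near that of all tested genes, and their median change was -0.04. The inhibitor-family gene AT5G20740 had 16.4, 16.1 and 12.8 FPKM at day 8, against 209, 206 and 216 FPKM at day 0 (-3.73 ± 0.11). AT3G47380, also of the inhibitor family, lay at the other end (4.81 ± 0.23). Of 6 primary wall cellulose synthase genes CESA5 (-1.09) and CESA9 (-1.19) fell, and CESA1 (0.45 ± 0.11) and CESA3 (0.36 ± 0.12) did not reach the minimum. CESA5 lost its call without day 8 replicate 3 (-0.78). After rescaling, 20 arabinogalactan, 20 pectin-cutting and 8 subtilase genes fell.

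Among other hormones, gibberellin genes rose in 6 of 20 and fell in 4, and 10 did not pass. The synthesis gene GA20OX1 fell to 0.0264, 0.187 and 0.304 FPKM at day 8, against 11.9, 13 and 14.3 FPKM at day 0 (-3.59 ± 0.16, adjusted p = 2.65e-06), and GA3OX3 (-2.27), GA2 (-1.22) and GA20OX2 (-1.16) fell with it. The genes of inactivating 2-oxidases GA2OX6 (3.87), GA2OX2 (2.69) and GA2OX8 (1.62) rose. The synthesis genes GA3OX1 (-0.71), KAO1 (-0.16) and KAO2 (-0.86) and the 2-oxidase gene GA2OX4 (-0.04) did not pass. GID1B, a gibberellin receptor gene, had 81, 116 and 95.6 FPKM at day 8, against 12, 12.7 and 12.4 FPKM at day 0 (2.87 ± 0.13), and GID1C (1.08) and the DELLA gene RGL3 (2.15) also rose.

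Auxin genes fell in 6 of 19 (31.6%) and rose in 1 (5.3%), against 15.3% and 14.2% of all tested genes. The synthesis genes YUC4 (-1.84), YUC6 (-1.78) and YUC2 (-1.47), the response factor gene ARF8 (-1.58) and the transporter genes PIN7 (-1.52) and LAX2 (-1.13) fell, and LAX3 rose (1.099). In the cytokinin list 6 of 14 fell (42.9%) and 2 rose (14.3%), a share of rises near the 14.2% of all tested genes. The type-A response regulator genes ARR9 (-2.84), ARR15 (-2.54), ARR16 (-1.65), ARR8 (-1.43) and ARR4 (-1.23) fell, whereas ARR5 (0.12) and ARR6 (0.01) did not pass, and the oxidase genes CKX4 (2.49) and CKX3 (1.42) rose.

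Phloem genes rose in 3 of 9 (33.3%) and fell in 0, against 14.2% and 15.3% of all tested genes. The rises were led by the sucrose exporters SWEET12, with 23.601, 18.1 and 21.1 FPKM at day 8, against 0.623, 0.503 and 0.731 FPKM at day 0 (3.76 ± 0.15), and SWEET11 (2.79 ± 0.18). The third, SEOR1 of sieve elements (1.05 ± 0.13), was under the minimum when either day 0 replicate 3 (0.97) or day 8 replicate 3 (0.97) was left out. The companion cell transporter gene SUC2 was at 10.2, 10.9 and 8.79 FPKM at day 8, against 8.75, 10.7 and 10.4 FPKM at day 0. Aquaporin genes rose in 8 of 34 (23.5%) and fell in 3 (8.8%), against the same shares of all tested genes. RD28 had 799, 704 and 347 FPKM at day 8, against 1.86, 1.64 and 2.06 FPKM at day 0 (7.67 ± 0.28). Of 13 xylem and secondary wall genes 7.7% rose and 7.7% fell, smaller shares than among all tested genes. VND7 rose (1.82 ± 0.25) and COBL4 fell (-1.02 ± 0.18). That fall lost its call without day 0 replicate 1 (-0.95), day 8 replicate 2 (-0.997) or day 8 replicate 3 (-0.94). Epidermis and cuticle genes rose in 2 of 30 and fell in 6, with LTP2 (3.15) and SHN1 (2.81) upward and CER4 (-2.67) and SHN3 (-1.73) downward. Of 17 clock genes PRR9 rose (1.04 ± 0.27) and PRR3 fell (-1.35 ± 0.17), and the call of PRR9 ended without day 8 replicate 1 (0.76). These are 5.9% each way, smaller shares than among all tested genes. After rescaling 3 clock genes rose and 1 fell. Of 7 heat shock genes HSP17.6II rose (1.69 ± 0.32) and 0 fell, a share of rises near the 14.2% of all tested genes.

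Hormone-response and signalling families held further changes of single members. Aux/IAA genes, whose products repress auxin responses, rose in 6 of 29 and fell in 4, near the 14.2% and 15.3% of all tested genes, and after rescaling 7 rose and 2 fell, with a median of -0.12 that was 0.06 after rescaling. IAA2 had 161, 196 and 84.6 FPKM at day 8, against 5.86, 6.23 and 5.78 FPKM at day 0 (4.33 ± 0.27), far apart in every library. SAUR genes rose in 9 of 32 and fell in 13, led by SAUR36 upward (3.78 ± 0.22). Protein phosphatase 2C genes rose in 11 of 54 (20.4%) and fell in 5 (9.3%), against 14.2% and 15.3% of all tested genes. ABI1, which holds back abscisic acid signalling, had 224, 219 and 173 FPKM at day 8, against 40.5, 41.3 and 43.4 FPKM at day 0 (2.26 ± 0.11). VQ motif genes, whose products partner WRKY proteins, rose in 6 of 20 and fell in 1, and replicate 3 was the lowest day 8 library for all 6 that rose. Of 29 ABCG transporter genes 6 rose (20.7%) and 3 fell (10.3%), against the same shares of all tested genes. ABCG1 had 92.8, 146 and 94.3 FPKM at day 8, against 0.733, 0.881 and 0.744 FPKM at day 0 (5.94 ± 0.18). PEN3, an exporter that acts in defence at the cell edge, also rose (4.43 ± 0.33).

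Of the remaining large families, GDSL lipase genes fell in 17 of 44 and rose in 9, and lipid transfer protein genes fell in 20 of 52 and rose in 10. The lipid transfer family gene AT2G10940 had 39, 29.7 and 14.9 FPKM at day 8, against 251, 270.0 and 238 FPKM at day 0 (-3.24 ± 0.30), and LTP2, a cuticle protein of the same family, 117, 121 and 57.9 FPKM at day 8, against 8.44, 9.14 and 11.6 FPKM at day 0 (3.15 ± 0.28), so members moved strongly both ways. Oxygenases of the 2-oxoglutarate type rose in 16 of 63 and fell in 9, with AT2G38240 (7.20) and AT5G05600 upward and GA20OX1 downward. Of 18 KNOX and BELL homeobox genes 4 rose and 4 fell, with BLH2 (1.81 ± 0.17) at one end and KNAT1 at the other. F-box genes rose in 17 of 156 and fell in 21, shares near the 14.2% and 15.3% of all tested genes, and after rescaling 24 rose and 12 fell, with a median of -0.06 that was 0.13 after rescaling. Genes of pentatricopeptide repeat proteins, which act on organelle RNA, rose in 2 of 271 and fell in 17, and after rescaling rose in 3 and fell in 8.

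The order of the 3 day 8 libraries differed between groups of genes. Replicate 3 was the lowest library for 21 of 23 R2R3 MYB, 32 of 42 cytochrome P450 and 17 of 22 EF-hand genes that rose. Over all genes that rose this share was 58.8%, and for the jasmonate genes it was 10 of 11 (synthesis) and 12 of 12 (response). The same library was the lowest for 0 of the 5 gynoecium genes and 0 of the 7 floral organ identity genes that rose, and for 12 of 28 glutathione S-transferase genes. The cause of the order was not tested.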

How the data were processed

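RNA-seq was done on inflorescences of 11 samples, of which the 6 of day 8 (n = 3) and day 0 (n = 3) enter the comparison, grouped by their labels. Per the labels and methods, the authors prepared stranded libraries of total RNA, mapped the reads onto TAIR10 with STAR and obtained expression estimates from RSEM 1.2.22. The deposited values are FPKM per gene, and the columns were found to share one distribution (quantile-normalized by the authors, a step whose tool is not given in the sources used here), with totals of 734615 to 734624. Depth is therefore unknown, no counting interval is given, and differences in total RNA output cannot be seen. RSEM divides reads among similar copies by estimate. The columns of p-values and false discovery rates deposited by the authors were not used.

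Genes with at least 1 FPKM in 2 or more of the 6 libraries were tested on log2(FPKM + 1) with limma 3.58.1 (moderated, with a mean-variance trend, R 4.3.3) and Benjamini-Hochberg adjustment. A change was called at an adjusted p under 0.05 and a log2 difference of at least 1. The fit was tested on simulated data. Replicate numbers name separate pools of inflorescences and the p-values measure the spread between these. Same-numbered samples did not deviate together, with correlations of -0.017 to -0.004. Families came from aliases and descriptions in the table and RefSeq. The comparison and the lists were chosen with earlier results of these data known, and genes were named by a rule: the 12 largest changes and 6 largest FPKM differences each way, all organ identity genes, up to 4 changed members of each list or family, and members whose role needed stating. Promoter windows came from the TAIR10.1 genome and RefSeq annotation, while the files hold locus names and no coordinates. Alternatives were another pseudocount (0.1, 5), filter, scaling, test, block and sample set, and leaving out each library.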

Additional observations from a re-analysis of the deposited data

How the results depend on the processing

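The counts of 5627 changed genes, 2707 higher and 2920 lower, stayed within 1.5 times of these values under every alternative run except 2. With a pseudocount of 5, 3411 genes changed, 1881 higher and 1530 lower. With a test against the 2-fold minimum itself, 2775 changed, 1620 higher and 1155 lower. Leaving out each library in turn gave 5216 to 6091 changed genes, 2516 to 2842 higher and 2700 to 3249 lower. With the replicate number as a block, 2732 rose and 2926 fell, 5626 of the calls were shared, and no pairing of the numbers was visible. Of the 277 genes named by the rule 272 were called, and 260 of these kept the call whichever library was left out. Under the other alternatives 217 kept it, and the losses were of size or significance, with 0 changes of direction. A pseudocount of 5 ended 34 calls, SUP, RBE and DMC1 among them, and the test against the 2-fold minimum 42, RBCS1A, GRP7, LTP6, LHCB1.3 and AT3G06700 among them. Rescaling to the median gene ended the calls of ETT, ARF4, TKPR2, PORA, COBL4 and CESA5. It also turned the sign of the median of 7 of 71 lists and families. What depth limits cannot be read from FPKM, and levels near 0.01 FPKM cannot be told from absence. Day 8 has no untreated counterpart of the same age, and AP1 and AP1-GR transcripts were not separated.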

Other observations

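Some regulators were level at the ends of the course and differed between them. BRC1, which holds back axillary buds, had 65.2, 52.8 and 95.1 FPKM at day 8, against 64.9, 68.4 and 56.8 FPKM at day 0, but averaged 23.9 FPKM at day 2 and 21.9 FPKM at day 4. CUC1, an organ boundary gene, had 23.1, 18.7 and 30.9 FPKM at day 8, against 19.8, 26.5 and 24.4 FPKM at day 0, and averaged 30.8 FPKM at day 2 and 51 FPKM at day 4. The anthocyanin genes LDOX, DFR and TT19 were already low at day 4, with 0.473, 0.311 and 1.05 FPKM, whereas the earlier pathway genes TT4 and F3H averaged 242 and 87.4 FPKM at day 4 and were low at day 8 only. These levels were picked after they were seen and carry no test.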
